A study of Mus musculus with 16 samples.

Results

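Hormone-sensing luminal cells are the mammary epithelial cells that carry the receptors for estrogen, progesterone and prolactin, and 7 genes that mark them were followed here in mouse mammary tumors with and without a gene trap in *Resf1*. The 7 were listed by name, with no threshold on their values, from a table of 23609 genes: the receptor genes *Esr1*, *Pgr* and *Prlr*, the transcriptional regulators *Foxa1* and *Cited1*, the estrogen receptor target *Greb1* and the surface marker *Prom1*. All 7 were found once each and all 7 were among the 21034 genes with enough signal to be tested.

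In the adult mammary gland the ovarian steroids and pituitary prolactin reach the epithelium through these receptors. Estrogen receptor alpha, the product of *Esr1*, opens up its targets together with the pioneer factor FOXA1, and the progesterone receptor gene is itself a classical target. The receptor-bearing cells pass the signal on to their neighbors by secreted factors such as amphiregulin, WNT4 and RANKL, and tumors driven by polyoma middle T antigen are known to lose hormone receptors as they progress.

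All mice carried MMTV-PyMT, a transgene that expresses polyoma middle T antigen from the mouse mammary tumor virus promoter in mammary epithelium and so induces mammary tumors. Wildtype animals had intact *Resf1*. The gene trap animals were *Resf1* +/-, from a B6(129S) strain with a lentiviral enhancer and gene trap in the first exon that makes an EGFP-cre fusion, crossed to FVB/MMTV-PyMT mice, and the wildtype animals were their littermates. Total RNA of whole primary tumors, which hold stroma as well as cancer cells, was sequenced. The labels describe 8 tumors a group, of which 5 wildtype and 5 gene trap tumors could be matched to a column of values. Neither the age of the animals nor the stage of the estrous cycle is given in the labels, and nothing states how the tumors were spread over mice, so the p-values measure the spread between these tumors.

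The deposited values are normalized by the median ratio method, not raw counts, and the depth of each tumor is therefore unknown. Column totals lay between 31995078 and 42153593. *Resf1*, on chromosome 6, was examined first because it carries the trap. The wildtype tumors averaged 4099 ± 400 and the gene trap tumors 3516 ± 361 (SD, n = 5 each), with overlapping groups and a log2 fold change of -0.22 (standard error 0.09; limma, unadjusted p = 0.0313, adjusted p = 0.9997). The epithelial marker *Epcam* was high in every tumor, between 19190.3 and 25277.5. Gene trap replicate 2 stood apart from the rest in 926 genes whose value in it was less than that of all 9 others by over 2 fold, where the count was 11 to 53 for any other tumor, and values without it are given after the comparison of the genotypes. For the 7 genes followed here it was the lowest tumor only for *Prom1*.

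To place the 7 genes beside their regulatory sequence, the 250 bases before each RefSeq start were searched in the mouse build GRCm38.p6. The 7 genes have 14 such windows, and those of *Pgr* and *Prom1* held no match to the motifs below. The windows below are shown because each holds a match to a motif of the same hormone pathways: the AGGTCA arm bound by the estrogen receptor, the forkhead motif TGTTTAC bound by FOXA1, and TTCNNNGAA bound by STAT5, the factor that the prolactin receptor activates. Both strands were searched, the sequences run 5′ to 3′ along the strand of the gene, and the matched bases are in capitals.

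*Esr1*, STAT motif, chr10:4709930-4710018 (+): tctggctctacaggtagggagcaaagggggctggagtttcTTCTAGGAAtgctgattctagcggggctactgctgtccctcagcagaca
*Prlr*, STAT motif, chr15:10223756-10223844 (+): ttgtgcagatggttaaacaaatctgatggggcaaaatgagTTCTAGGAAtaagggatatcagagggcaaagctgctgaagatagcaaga
*Prlr*, forkhead motif, chr15:10223656-10223737 (+): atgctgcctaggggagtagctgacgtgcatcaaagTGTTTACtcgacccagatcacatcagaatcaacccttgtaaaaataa
*Foxa1*, forkhead motif on the opposite strand, chr12:57546206-57546292 (-): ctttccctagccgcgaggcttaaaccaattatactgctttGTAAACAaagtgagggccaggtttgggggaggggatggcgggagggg
*Cited1*, AGGTCA on the opposite strand, chrX:102250948-102251026 (-): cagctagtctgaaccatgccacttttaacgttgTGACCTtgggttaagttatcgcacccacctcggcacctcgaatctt
*Greb1*, AGGTCA on the opposite strand, chr12:16800929-16801014 (-): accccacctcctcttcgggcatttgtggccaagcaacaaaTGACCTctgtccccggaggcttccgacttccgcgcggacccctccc

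Matches of this kind are frequent. AGGTCA was found in 14.0% of all 32851 promoter windows, TTCNNNGAA in 7.02% and TGTTTAC in 3.17%, against 2 of the 14 member windows for each. The full palindrome GGTCANNNTGACC, whose arms overlap with AGGTCA, was in 0 of the 14 and in 0.0639% of all windows. The matches in *Esr1* and *Prlr* shared all 9 letters, TTCTAGGAA, a run that 114 windows (0.347%) hold and that was looked up after it had been seen. A match is a description of the sequence and not evidence of a bound site.

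*Esr1* (ENSMUSG00000019768, chromosome 10) encodes estrogen receptor alpha. Its normalized values in wildtype replicates 1 to 5 were 673, 373, 649, 454 and 499, and in gene trap replicates 1 to 5 they were 446, 397, 389.7, 466 and 689.7. The groups overlapped throughout, and gene trap replicate 5 lay above the 4 other gene trap tumors and just above the highest wildtype tumor. Gene trap over wildtype gave a log2 fold change of -0.15 (standard error 0.19), a ratio of 0.903 with a 95% interval of 0.677 to 1.20. Since these are bulk tumors, fewer cells of a type and less RNA per cell cannot be told apart for this gene or any below.

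*Pgr* (ENSMUSG00000031870, chromosome 9), the progesterone receptor gene and the classical estrogen-induced member, gave the widest range. In wildtype replicates 1 to 5 it was 94.9, 77.6, 118, 257 and 79.3, and in gene trap replicates 1 to 5 it was 119, 152, 95.9, 119 and 1105. A single gene trap tumor, replicate 5, stood 4.29 fold above the next highest tumor of either genotype, while the remaining gene trap tumors sat inside the wildtype range. Wildtype replicate 4, the next highest, also stood apart from its own group. The log2 fold change was 0.73 (standard error 0.60) over all tumors and 0.09 (standard error 0.32) when gene trap replicate 5 was left out, a step chosen after its values had been seen.

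*Prlr* (ENSMUSG00000005268, chromosome 15) encodes the prolactin receptor, which signals through JAK2 and STAT5. Of the 3 receptor genes it had the highest level, also per kilobase of transcript, with 5210.5, 4135, 5307, 4600.1 and 4595 in wildtype replicates 1 to 5 and 3957, 4093, 4142, 4358 and 7345 in gene trap replicates 1 to 5. Gene trap replicates 1 to 4 were tightly grouped at or below the lower end of the wildtype range, and replicate 5 was the highest of all 10. The estimate was therefore -0.03 on the log2 scale (standard error 0.16) with that tumor and -0.20 (standard error 0.09) without it. In the second fit limma gave an unadjusted p of 0.0386 and an adjusted p of 0.9896, and the groups still overlapped.

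*Foxa1* (ENSMUSG00000035451, chromosome 12) encodes the forkhead pioneer factor that opens chromatin for the estrogen receptor. It was low in all tumors, at 51.8, 53.9, 95.4, 29.3 and 46.9 in wildtype and 23.3, 35.8, 32.2, 42.9 and 136 in gene trap replicates 1 to 5. Gene trap replicate 5 was again the highest tumor, and the lowest was gene trap replicate 1. Its log2 fold change was -0.24 (standard error 0.43), or -0.64 (standard error 0.32) without replicate 5, and neither passed the test. Leaving out gene trap replicate 1 or wildtype replicate 3 instead brought the estimate to -0.016 or -0.018.

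*Cited1* (ENSMUSG00000051159, chromosome X) encodes a transcriptional coactivator that binds the estrogen receptor and marks ductal hormone-sensing cells. Its values were 115, 69.0, 98.6, 33.0 and 64.8 in wildtype and 46.5, 63.4, 27.9, 50.1 and 191 in gene trap replicates 1 to 5. The order of tumors resembled that of *Foxa1*, with gene trap replicate 5 highest and the 4 other gene trap tumors below the wildtype median. On the log2 scale the difference was -0.21 (standard error 0.46) and became -0.62 (standard error 0.36) without replicate 5.

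*Greb1* (ENSMUSG00000036523, chromosome 12), an estrogen-induced gene whose product is a cofactor of the receptor, was at 60.5, 89.6, 51.8, 64.6 and 27.3 in wildtype and 47.0, 37.2, 99.1, 81.1 and 143 in gene trap replicates 1 to 5. Replicate 5 was highest here too, but gene trap replicate 3, wildtype replicate 2 and gene trap replicate 4 followed, so its gap to the rest of its genotype was smaller than for *Foxa1* or *Cited1*. A log2 fold change of 0.40 (standard error 0.39) was estimated over all tumors, and of 0.16 (standard error 0.37) without replicate 5.

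*Prom1* (ENSMUSG00000029086, chromosome 5) encodes prominin 1, or CD133, a membrane protein used to sort hormone-sensing luminal cells in the mouse. It was the exception. The values were 4674, 2536, 3593, 2996 and 2918 in wildtype and 3950.0, 2476, 3148, 3804 and 3642 in gene trap replicates 1 to 5, so the highest tumor was wildtype replicate 1 and gene trap replicate 5 lay within the range of the others. The log2 fold change was 0.04 (standard error 0.17) with replicate 5 and 0.01 (standard error 0.18) without it.

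**Figure D1:**
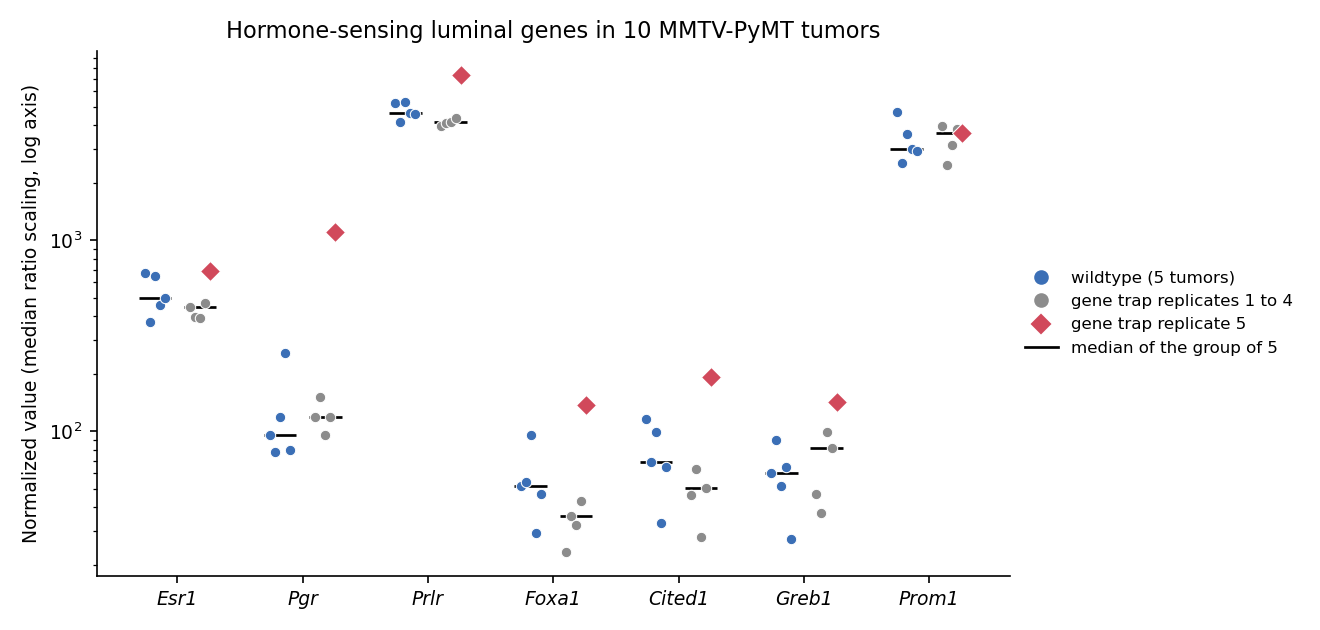
Normalized value (y, log axis) of the 7 genes in each of 10 tumors, with wildtype tumors in blue, gene trap replicates 1 to 4 in grey, gene trap replicate 5 as a red diamond and the median of each group of 5 as a line. The groups overlap for every gene, and replicate 5 is the highest tumor for all but *Prom1*.

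Between the genotypes, limma called 0 of the 7 genes at an adjusted p under 0.05, and 0% of all tested genes, and 0 of the 7 had an unadjusted p under 0.05, against 2.28% (479 of 21034) of all tested genes. The 5 wildtype and 5 gene trap values overlapped for all 7, and they did not overlap for 0.528% of tested genes. The exact two-sided permutation test over the 252 arrangements of the tumors, which can reach no p below 0.00794, gave between 0.405 for *Pgr* and 0.873 for *Prlr*. The estimates were 3 above and 4 below 0, with a median log2 fold change of -0.03 beside 0.00 over all genes. The intervals set how much could have been missed. For *Prlr* and *Prom1* the 95% interval of the ratio ran from 0.773 to 1.23 and from 0.798 to 1.32, while for *Pgr* it ran from 0.675 to 4.08 and for *Cited1* from 0.428 to 1.74. Without gene trap replicate 5 the median was -0.20 beside 0.01 over all genes, and 1 of the 7, *Prlr*, had an unadjusted p under 0.05, as did 2.68% of all genes. Without gene trap replicate 2, the tumor that stood apart over all genes, the median was 0.01, *Greb1* was at 0.63 (standard error 0.36), *Prom1* at 0.15 (standard error 0.15) and *Prlr* at 0.01 (standard error 0.16).

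**Figure D2:**
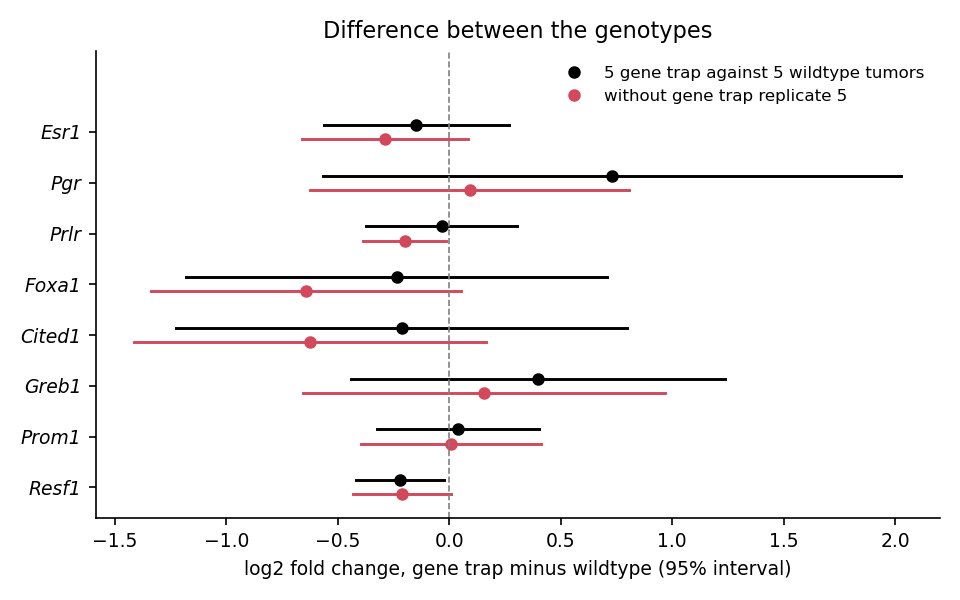
Log2 fold change of gene trap over wildtype (x) with limma's 95% interval for the 7 genes and *Resf1*, over all 10 tumors in black and without gene trap replicate 5 in red. Leaving the tumor out moves *Pgr* from 0.73 to 0.09 and *Foxa1* and *Cited1* below -0.6, and the *Prlr* interval, -0.39 to -0.01, then ends just short of 0.

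The larger differences lay between single tumors. Gene trap replicate 5 was the highest of the 10 for 6 of the 7 genes, and for 8.09% of all tested genes. When the columns were scaled to equal totals, chosen after the values were seen, it was highest for 5 of the 7, since *Esr1* was then higher in another tumor. How many of all tested genes replicate 5 then led is not given here, so counts after that scaling have no background. Relative to the median of the 9 other tumors its level was 9.33 fold for *Pgr*, 3.18 fold for *Foxa1*, 3.01 fold for *Cited1*, 2.36 fold for *Greb1*, 1.69 fold for *Prlr*, 1.52 fold for *Esr1* and 1.16 fold for *Prom1*. Of the 7, *Pgr* alone was over 2 fold above every other tumor, as were 45 tested genes (0.214%). The tumor's *Resf1* value, 3409, was within the range of the other gene trap tumors. As it is 1 tumor, its levels are a description with no test.

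The same tumor was high for several genes from a list of 22 estrogen and progesterone receptor targets, 18 of them tested. Receptor activity itself was not measured. Gene trap replicate 5 was the highest tumor for 8 of the 18 (7 after scaling to equal totals) and the lowest for 2. In this tumor the shares over all tested genes were 8.09% and 7.59%. *Areg*, the amphiregulin gene that relays the estrogen signal to neighboring cells, was at 691 in it and between 15.2 and 70.2 in the 9 others. *Stc2*, the stanniocalcin 2 gene, was at 2103 against 244 to 680.4, *Agr2*, a protein disulfide isomerase gene, at 189 against 8.46 to 38.2, and the proto-oncogene *Myb* at 421 against 176 to 261. *Wnt4*, a progesterone-induced ligand, was at 158 against 51.3 to 91.1. These 5 examples were picked with their values known. The targets with the highest normalized values showed less, with *Xbp1* at 55281.7 against 28212.4 to 48571.6, *Ccnd1* at 9968 against 6148 to 9922, and *Ctsd* and *Fkbp5* inside the range of the others. *Igfbp4* and *Ret*, also picked for their values, were lowest in this tumor.

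**Figure D3:**
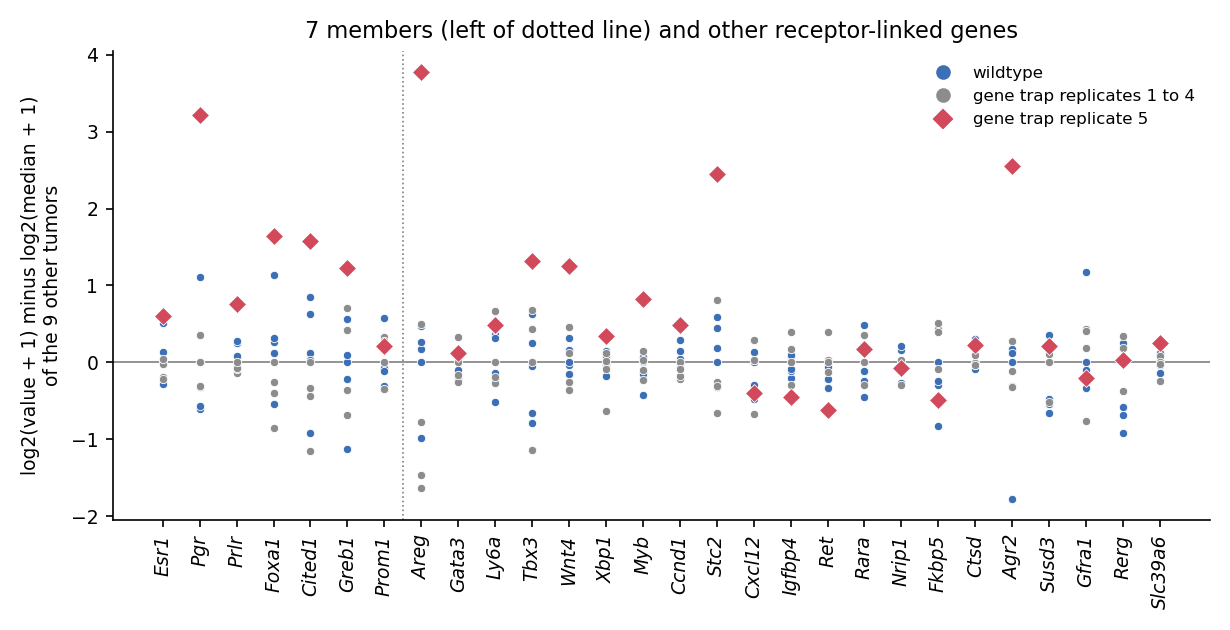
Each tumor's log2(value + 1) minus that of the median of the 9 tumors other than gene trap replicate 5 (y) for the 7 members, left of the dotted line, and for the other tested hormone-sensing markers and receptor targets except 1 (x). The red diamond of gene trap replicate 5 is farthest up for *Areg* and *Pgr* and lies among the other tumors for *Prom1*, *Gata3* and *Ctsd*.

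Between the genotypes the pathway genes were tested in the same fit. Of the 18 targets tested, limma called 0 at an adjusted and 0 at an unadjusted p under 0.05, with a median log2 fold change of 0.08, and of 0.01 without gene trap replicate 5. Without that tumor 2 of the 18 had an unadjusted p under 0.05 with limma, as did 2.68% of all tested genes. They were *Ccnd1* at -0.30 on the log2 scale (standard error 0.11, limma, adjusted p = 0.9896) and *Fkbp5* at 0.50 (standard error 0.21, limma, adjusted p = 0.9896). The other hormone-sensing markers, 6 of 7 tested, also gave 0 calls at either threshold, with a median of 0.11 that became -0.01 without gene trap replicate 5. *Gata3*, a luminal transcription factor gene, was at 2691 ± 218 in wildtype and 2788 ± 454 in gene trap tumors (SD, n = 5 each).

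Genes that act around the receptors were followed as well. All 19 listed cofactors of the estrogen receptor were tested, and 0 were called at either threshold. Gene trap replicate 5 was the highest tumor for 0 of them (1 after scaling to equal totals) and the lowest for 4. *Ncor1*, a corepressor gene, ranged from 8309 to 10486 over the 9 other tumors and was 10106 in replicate 5. For prolactin receptor signaling 9 of 10 genes were tested and 0 called. *Stat5a* and *Jak2*, which carry the signal, were highest in replicate 5, at 3126 against 2079 to 3051 and at 2373 against 1356 to 2202. After scaling to equal totals replicate 5 was highest for 0 of the 9 genes. *Elf5*, the alveolar transcription factor gene downstream of prolactin, was lowest there, at 6503 against 6807 to 10482. *Jak2* was picked with its values known. Of 13 other hormone receptor genes, all tested and 0 called, replicate 5 was highest for 0 (1 after scaling to equal totals). Without that tumor 1 of the 13, *Gper1*, had an unadjusted p under 0.05 (limma, log2 fold change 0.33, standard error 0.15), as did 2.68% of all tested genes. The glucocorticoid receptor gene *Nr3c1* was at 5673 ± 430.1 in wildtype and 5245 ± 579 in gene trap tumors (SD, n = 5 each).

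Relatives of the members by sequence were checked too. Of 8 such genes 7 were tested and 0 called, and gene trap replicate 5 was highest for 2, *Prom2* and *Foxa3*. After scaling to equal totals it was highest for 1. *Foxa3* and *Esr2* lay outside the naming rule and were picked with their values known. *Esr2*, which encodes estrogen receptor beta, was at 60.8 in it and between 25.9 and 83.2 in the others. *Cited2* and *Cited4* were highest in gene trap replicate 2.

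Across the 10 tumors the members were then compared with each other. All 21 pairs had a positive Pearson r on log2 values, with a median of 0.46. The same figures for pairs of other genes are not given here, so these have no background. After adjustment over the 21 pairs, 5 had a permutation p under 0.05 for Pearson's r and 2 of these also for Spearman's rho. *Esr1* and *Prlr* had r = 0.86 (permutation, adjusted p = 0.00504) and rho = 0.84 (adjusted p = 0.0393, permutation). *Foxa1* and *Cited1* had r = 0.86 (permutation, adjusted p = 0.0118) and rho = 0.90 (adjusted p = 0.0143, permutation). The other 3 were *Foxa1* with *Prlr* (r = 0.86, rho = 0.66), *Prlr* with *Cited1* (r = 0.81, rho = 0.60) and *Esr1* with *Cited1* (r = 0.78, rho = 0.66).

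Much of this rested on gene trap replicate 5. Without it, over 9 tumors, 12 pairs were positive and 9 negative, the median r was 0.08, and 0 pairs passed with both measures. *Pgr* with *Prlr* went from r = 0.76 to r = 0.01, and *Pgr* with *Cited1* from 0.46 to -0.39. *Esr1* with *Prlr* remained at r = 0.92, and at r = 0.89 over 8 tumors when the pair of tumors farthest from the *Esr1* median was left out, with adjusted permutation p of 0.0361 and 0.186. *Foxa1* with *Cited1* had r = 0.75 and 0.70 under the same steps, with adjusted permutation p of 0.159 and 0.532. With values centred on their group mean the r of these pairs was 0.87 and 0.86, and the adjusted permutation p 0.0607 and 0.0873. *Esr1* and *Prlr* are also the pair whose promoter windows above share the same STAT match, and neither measurement tests the other.

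**Figure D4:**
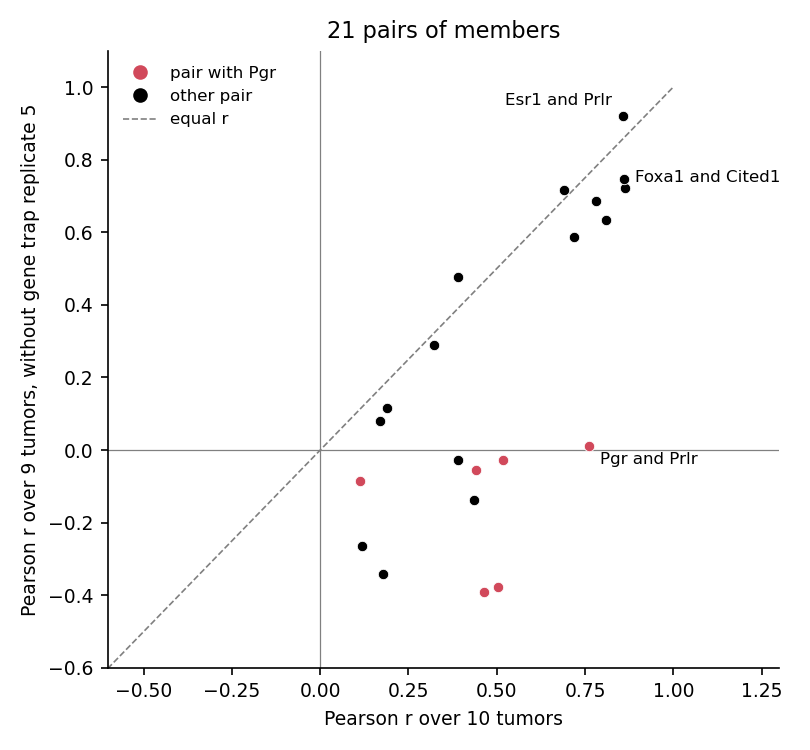
Pearson r of the 21 pairs over 10 tumors (x) against r over the 9 tumors without gene trap replicate 5 (y), with the 6 pairs that hold *Pgr* in red and equal values on the dashed line. The pairs with *Pgr* fall to about 0 or below, while *Esr1* with *Prlr* stays at the upper right.

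The genes most like each member were named by Pearson r over the 10 tumors among 15980 genes with a symbol and a mean of at least 50, as a description without p. *Sh2d4a* followed *Esr1* with r = 0.95, and with 0.93 over the 9 tumors without gene trap replicate 5, first in rank both times. *Prlr* itself ranked 25 for *Esr1* over 10 tumors and 3 over 9. The other members ranked lower for *Esr1* over 10 tumors: *Cited1* 115, *Foxa1* 259, *Prom1* 335, *Pgr* 1768 and *Greb1* 6046. For *Prlr* the leading genes were *Gipc2* (r = 0.97) and *Fgfr2*, a fibroblast growth factor receptor gene (r = 0.93), both with their highest value in replicate 5, and over 9 tumors *Fbxo25* and *Zswim5* led instead. For *Pgr* they were *Gm16485* (r = 0.95) and *Slc7a2*, a cationic amino acid transporter gene (r = 0.92), and over 9 tumors *Chmp4c* and *Aff1* took their place. *Slc7a4* and *Tmem56* led for *Foxa1* (r = 0.95 and 0.94), and over 9 tumors *Slc20a2* and *Mum1l1*. *Bbs4*, a gene of the ciliary BBSome complex, led for *Cited1* over 10 and over 9 tumors (r = 0.96 and 0.93), with *Fut10* next over 10 (r = 0.92). *Ap1b1* and *Mapk9* led for *Greb1* both times, with r = 0.95 and 0.94 over 10 tumors. *Med23* and *Iqgap2* led for *Prom1* (r = 0.91 and 0.90).

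The members also differed in level and in spread. Per kilobase of the longest transcript, the normalized level in wildtype tumors was 818 ± 204 for *Prom1*, 482 ± 49.1 for *Prlr*, 83.6 ± 20.2 for *Esr1*, 69.8 ± 29.2 for *Cited1*, 18.2 ± 11.0 for *Pgr*, 17.4 ± 7.63 for *Foxa1* and 7.29 ± 2.80 for *Greb1* (SD, n = 5 each). All wildtype values of *Prom1* lay above those of *Prlr*, and all of *Prlr* above those of *Esr1*, whereas each neighboring pair from *Esr1* down overlapped. With the length of all exons combined, *Cited1* came before *Esr1* and *Foxa1* before *Pgr*. In gene trap replicate 5 the level of *Pgr* per kilobase was 160.4, near the 175 of *Cited1* and above the 109 of *Esr1*. By the SD of log2 values over the 10 tumors, 0.941% of tested genes were more variable than *Pgr*, 3.37% more than *Cited1*, 4.54% more than *Foxa1* and 6.19% more than *Greb1*, against 35.8% for *Esr1*, 42.4% for *Prom1* and 46.5% for *Prlr*. Without gene trap replicate 5 the share for *Pgr* was 15.1%, and for *Prlr* 74.9%.

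Marker lists of the other cell types in a mammary tumor were summed in each tumor to set beside these levels. In gene trap replicate 5 the 6 luminal epithelial markers summed to 98395.8, second highest of the 10, where the others ranged from 73498.7 to 100789. The 4 tested adipocyte markers, *Adipoq*, *Cfd*, *Fabp4* and *Plin4*, were all lowest in this tumor and summed to 1553 against 2550.2 to 10324.9 in the others. Fibroblast markers summed to 53126, the next to lowest, against 40248.2 to 122483. Of this sum 25407 came from *Col3a1*, 13511 from *Col1a2* and 7995 from *Col1a1*, so it mostly describes collagen genes. Replicate 5 was the lowest tumor for 0 of the 8 fibroblast markers, and *Dcn* was at 2113 in it against 1697 to 4246. Of 10 basal and myoepithelial markers, 4 were lowest in it, among them *Acta2* and *Myh11*, and *Krt5* was highest. Luminal progenitor and alveolar markers, at 51099.5, and milk genes, at 161262, lay inside the range of the others. The first sum was mostly *Ehf*, at 33293, and the second mostly *Csn3*, at 141356. In each of these lists 1 gene was lowest in this tumor. The part of this cell content in the levels of the 7 genes was not tested. Between the genotypes 2 of the 10 basal and myoepithelial markers, *Krt17* and *Myh11*, passed an unadjusted p of 0.05 with limma, as did 2.28% of all tested genes. Their log2 fold changes were -0.63 and -0.67 (standard error 0.23 and 0.25), and 0 of the 10 passed an adjusted p of 0.05. Without gene trap replicate 5, a step chosen after its values had been seen, the number at the unadjusted threshold was 4 of 10. The share was 2.68% of all tested genes, and in that fit limma gave no gene an adjusted p below 0.9896. Over all 10 tumors the estimates of all 10 basal and myoepithelial markers were below 0, with a median log2 fold change of -0.34. So were those of 7 of 7 luminal progenitor and alveolar markers and 9 of 10 milk genes. They were above 0 for 8 of 8 fibroblast and 4 of 6 luminal epithelial markers. These directions are a description with no test.

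**Figure D5:**
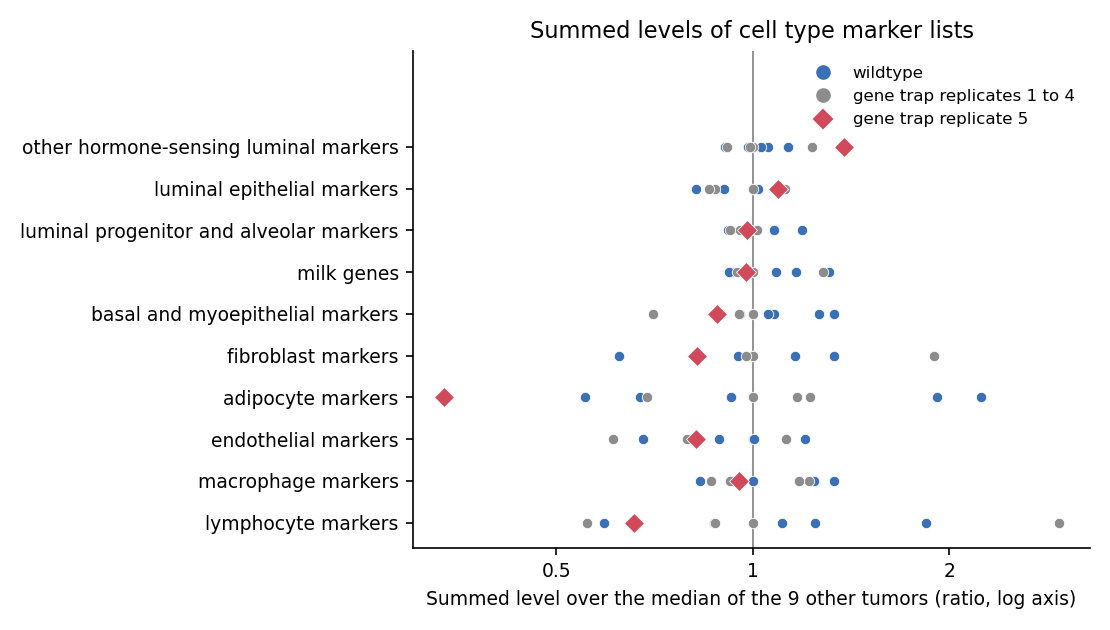
Summed normalized level of each marker list in each tumor over the median of the 9 tumors other than gene trap replicate 5 (x, ratio on a log axis), with wildtype tumors in blue, gene trap replicates 1 to 4 in grey and replicate 5 as a red diamond. Replicate 5 is highest for the other hormone-sensing markers, at 1.38, and lowest for the adipocyte markers, at 0.336. The first place rests on *Areg*, which gave 691 of a sum of 5788 in replicate 5. The next sum was 5161 in gene trap replicate 2, where *Areg* was at 15.2. Replicate 5 was highest for 3 of the 6 genes of that list.

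Some limits belong to single genes. In the GENCODE annotation *Prlr* shares its strand with the overlapping model *Gm21973*, *Prom1* with *Gm42716* and *Greb1* with the microRNA model *Gm44305*, and *Greb1* and *Prom1* also overlap antisense genes. Strand cannot separate the first kind. The libraries were stranded, but whether strand was used in counting is not given in the sources used here, so reads of the antisense partners may be mixed in too. The values of *Foxa1*, *Cited1* and *Greb1* were low, and the fold changes on the log2(value + 1) scale understate differences at such levels.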

How the data were processed

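Total RNA from whole mammary tumors was extracted with Trizol and made into TruSeq Stranded Total RNA libraries. Per the labels, the submitters' processing notes name Partek, STAR 2.7.8a, DESeq2 and the mm39 build as the tools of the authors. The authors deposited a table of estimated read signal per gene, already normalized by the median ratio; each column's median ratio to the geometric mean lay between 1.005 and 1.006, with 0 zeros. The annotation and counter are not given in the sources used here. Of 16 columns, 10 were matched to labels by name and 6 were not used. A symbol was matched to 97.0% of the IDs, and transcript lengths came from GENCODE mouse release 21.

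Values were analysed as log2(value + 1). Genes with a mean of at least 10 were fitted with limma 3.58.1 (R 4.3.3), with empirical Bayes moderation along the mean-variance trend, genotype as the single factor, and p-values adjusted by Benjamini-Hochberg over all tested genes. Single genes were also compared by an exact permutation test, and pairs of members by 100000 permutations. The fit was tested on simulated data. Named genes were the 7 members, *Resf1*, the 2 genes most like each member and, within each list, the 4 with the highest mean value and those with an unadjusted p under 0.05. Values of 1 listed gene are not reported here. The members and lists were chosen with earlier results of these data known. Promoter sequences are from RefSeq (GRCm38.p6), with a window for all 7 members. Alternatives were other pseudocounts, filters and scalings, no variance trend, weights per tumor, a replicate block and each tumor left out.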

Additional observations from a re-analysis of the deposited data

Results flagged for a closer look

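In each genotype the highest or lowest of the 5 tumors was called apart when its gap to the next, over the whole range, passed Dixon's critical value of 0.71. Of 110 groups of 5 values (members, *Resf1*, receptor targets, other hormone-sensing markers, prolactin signaling, hormone receptors and relatives of the members) 13 passed. The gaps were taken on the normalized values and not on the log2 scale. For independent, normally distributed values about 1 in 20 groups would pass, or about 5.5. Neither property was tested here, so the 13 cannot be read against that number. Taking log2 values shrinks a gap on the high side relative to the range, and the count on that scale was not made. Of the 13, 10 were gene trap replicate 5, all on the high side.

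Among members in gene trap replicate 5 these were *Esr1* at 689.7 (others of its genotype 389.7 to 466), *Pgr* at 1105 (95.9 to 152), *Foxa1* at 136 (23.3 to 42.9), *Prlr* at 7345 (3957 to 4358) and *Cited1* at 191 (27.9 to 63.4). *Greb1* and *Prom1* did not pass. Outside the members, the same tumor passed for *Areg* at 691, *Myb* at 421, *Ccnd1* at 9968, *Stc2* at 2103 and *Agr2* at 189. In wildtype tumors *Pgr* was at 257 in replicate 4 (others 77.6 to 118), *Gfra1*, a receptor gene for glial cell line-derived neurotrophic factor, at 840 in replicate 2 (others 295 to 371), and *Agr2* at 8.46 in replicate 5 (others 31.5 to 35.7).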

How the results depend on the processing

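Under 19 alternatives, 0 genes and 0 members had an adjusted p under 0.05, as in the fit reported; genes with an unadjusted p under 0.05 ranged from 304 (columns scaled to equal totals) to 694 (without gene trap replicate 4), and were 307 without wildtype replicate 4. Directions held for *Esr1*, *Pgr*, *Foxa1*, *Greb1* and *Resf1* under all of them. Leaving out each tumor gave log2 fold changes from -0.20 to 0.023 for *Prlr*, from -0.62 to 0.059 for *Cited1* and from -0.052 to 0.17 for *Prom1*, so that these 3 changed sign, and from 0.09 to 1.03 for *Pgr*, -0.64 to -0.016 for *Foxa1*, -0.29 to -0.052 for *Esr1* and 0.15 to 0.63 for *Greb1*; the other settings turned no direction. The same replicate numbers in both genotypes belong to different animals, and deviations of same-numbered tumors correlated between -0.16 and 0.15. No pairing was seen in these values, but 5 pairs cannot exclude one, such as by litter. With the replicate block the *Pgr* value was 0.73 and 0 genes were called. Pairs of members that passed with both correlations fell from 2 to 0 without gene trap replicate 5, to 0 with values centred on the group mean and to 0 without the pair of tumors farthest in the first gene; leaving out 1 tumor at a time (gene trap replicate 2 or 5) gave 2 and 0. The cause was not tested. Members highest in gene trap replicate 5 were 6, or 5 with equal totals. Depth is unknown, so no counting error could be given for the low genes *Foxa1*, *Cited1* and *Greb1*.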

Other observations

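Over all tested genes, 45 were over 2 fold higher in gene trap replicate 5 than in every other tumor. Among them were the list genes *Pgr*, *Areg*, *Agr2* and *Stc2*. Such a count was not particular to this tumor. It was 230 for gene trap replicate 2, 55 for wildtype replicate 5, 52 for gene trap replicate 3 and 4 to 21 for the remaining tumors. The examples here were chosen after their values were seen, and are values of 1 tumor with no test. *Pcp4*, a calmodulin-binding peptide gene, led with 479 against at most 23.1 in the 9 others, 20.8 fold higher than the next. *Msx2*, a homeobox gene active in mammary development, was at 218 against 17.6 to 45.0. *Slc5a5*, the sodium iodide symporter gene, was at 227 against 39.8 to 84.6. *Ptn*, the gene of the growth factor pleiotrophin, was at 1441 against 234 to 567, and *Dmbt1*, a secreted mucosal glycoprotein gene, at 5372 against 0.871 to 1205.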
